A study of Rattus norvegicus with 15 samples.

Results

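Glucocorticoid-induced genes were read as a sign of surgical stress in a brain artery, the posterior cerebral artery, taken from Sprague Dawley rats. The genes were chosen by name, 8 in all: Fkbp5, Tsc22d3, Sgk1, Cdo1, Klf9 and Errfi1, which the hormone is known to induce, with the receptor gene Nr3c1 and the activating enzyme gene Hsd11b1. Every probe set annotated to one of them was used, which gave 11 of the 15866 probe sets that are not array controls. Klf9 had 3 probe sets, Nr3c1 had 2, and the others had 1 each.

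The 15 arrays fall into 5 groups of 3, and each array held RNA pooled from the arteries of 8 rats, aged 7 weeks and weighing 300 to 350 g. In 3-vessel occlusion (3VO) both vertebral arteries were coagulated and the left common carotid artery was tied, and arteries were taken after 24 h or after 3 d. Sham surgery laid the same vessels open without touching them, with the same 2 times. Both operations were done under isoflurane with buprenorphine as analgesic. The text for the intact rats, the control at time 0, names neither drug. Surgery, anaesthesia and analgesia therefore cannot be told apart in any comparison with intact arteries. All vessels were filled with latex under papaverine before the artery was dissected. The intact arrays also carry the numbers 13 to 15, after the 12 operated arrays, so array order cannot be told apart from the intact group either, except through a linear term. The treatment text of sham replicate 1 at 3 d describes the occlusion, against its title and source label. That array was kept as sham, and the main differences it enters are also given without it.

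Glucocorticoids, corticosterone in the rat, enter cells and bind the glucocorticoid receptor, which Nr3c1 encodes and which heat shock proteins and FKBP immunophilins hold ready in the cytoplasm. The bound receptor moves to the nucleus and binds DNA elements made of a pair of inverted half-sites, and genes such as Fkbp5 and Tsc22d3 then rise within hours. Hsd11b1 encodes the enzyme that regenerates active hormone from its inert 11-keto form inside the tissue. Surgery, pain and anaesthesia are known to raise circulating hormone, and transcripts of these targets are often used to read the exposure of a tissue to it.

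None of the 11 probe sets passed limma at a Benjamini-Hochberg adjusted p of 0.05 in any of the 10 contrasts between groups or in the F-test over the 5 groups. In the mean of the 4 operated groups against intact, 8 of 11 probe sets were higher and 3 lower, where 56.2% of all probe sets tested were higher. Their median log2 difference was 0.24 against 0.050 over all probe sets. With 1 probe set a gene, the brightest, 5 of 8 genes were higher, with a median of 0.13. Of these 11, 2 had an unadjusted p under 0.05, where 16.8% of all 15737 probe sets tested did, and the adjusted test called 0.432% of all probe sets. Those 68 calls became 927 without intact replicate 3 and ran from 0 to 79 with another array left out, with 0 calls without intact replicate 1, 3VO replicate 2 of 3 d, or sham replicate 2 or 3 of 24 h. For 3VO against sham at 24 h, 3 of 11 had an unadjusted p under 0.05, against 6.97% of all probe sets, and the adjusted test called 0.0508%. At 3 d that contrast had 1 of 11, against 4.73%, and the adjusted test called 0%. Without the sham array whose text describes the occlusion, Hsd11b1 had an unadjusted limma p of 0.0115 in it. The dimmer Nr3c1 probe set then had 0.0129 and the brightest Klf9 probe set 0.0425, and none passed after adjustment. Sham at 24 h against intact had 3 of 11 against 15%, and sham at 3 d against intact 1 of 11 against 14.2%, with 0% called by the adjusted test in both. Without intact replicate 3 these became 818 probe sets at 24 h and 184 at 3 d. For 3VO against intact the counts were 3 of 11 at 24 h, against 9.96%, and 1 of 11 at 3 d, against 12.9%, where the adjusted test called 0.184% and 0.222%, or 29 and 35 probe sets, which became 227 and 258 without intact replicate 3. With another array left out the calls ran from 7 to 25 at 24 h and from 0 to 39 at 3 d. The 8 calls of 3VO against sham at 24 h ran from 1 to 13 with any array left out. The F-test called 0.0763% of all probe sets. The change of the 3VO effect from 24 h to 3 d had 0 of 11 at an unadjusted p under 0.05, against 2.78%, with 0% called after adjustment. Without the sham array whose text describes the occlusion, the dimmer Nr3c1 probe set had an unadjusted limma p of 0.0074 for this change, and none passed. Between the times, sham had 1 of 11 against 5.65% and 3VO 2 of 11 against 5.76%, again with 0% called. With 3 arrays a group, a log2 difference that did not pass is given with its 95% interval, since a missed threshold does not show equal levels.

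**Figure D1:**
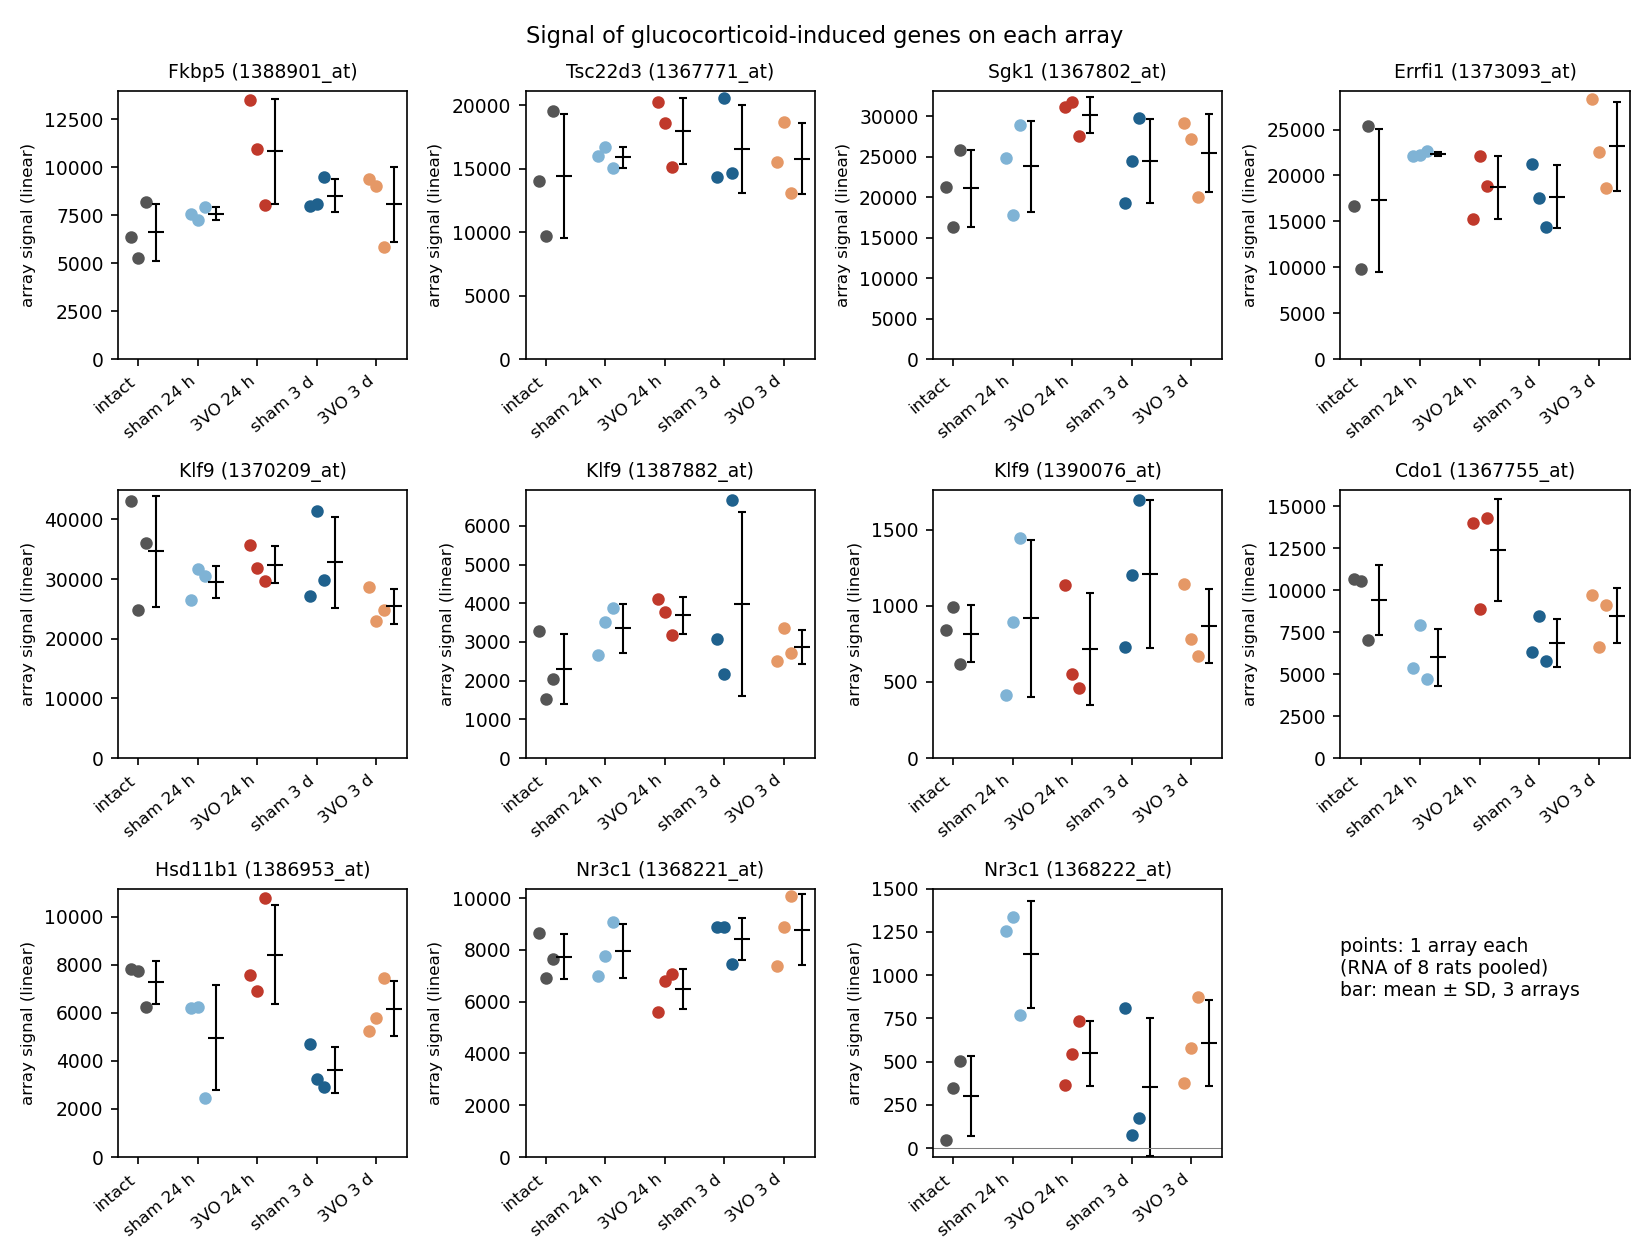
Linear array signal of the 11 probe sets on each of the 15 arrays, by group, with points for single arrays and bars for the mean and SD of 3 arrays. Fkbp5, Cdo1 and Hsd11b1 lie higher on the 3 arrays of 3VO at 24 h than on the 3 sham arrays of 24 h, while the intact arrays of Errfi1 run from 9777 to 25388.

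Signals are linear array intensities on the scale the authors deposited. Differences between groups are on the log2 scale, taken from means of log2(signal + 16), and carry limma's standard error (SE). In pooled tissue RNA, fewer cells that carry a transcript and less transcript per cell cannot be told apart. The arrays had a common trimmed mean of 5000 and medians between 2559.4 and 2940.9. Between 1.33% and 5.19% of values on an array lay below 100. No measured marker of the arterial wall lay below that level on all arrays of a group. Smooth muscle, endothelial and pericyte lists were measured for 9 of 9, 8 of 10 and 6 of 6 genes. Markers of adjoining brain were present as well, with 13 of 14 neuron markers measured and none below 100 throughout a group.

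The receptor came first. The brighter of the Nr3c1 probe sets gave 8666, 6910 and 7638 on the intact arrays. It gave 7000, 7770 and 9077 on sham arrays of 24 h and 5601, 6780 and 7068 on 3VO arrays of 24 h. At 3 d the values were 8873, 8864 and 7467 for sham and 7360, 8874 and 10087 for 3VO. The 5 group means thus ran from 6483 ± 778 for 3VO at 24 h (SD, n = 3 arrays) to 8774 ± 1366 for 3VO at 3 d, and neighbouring groups in this order overlapped. Operated arteries as a whole differed from intact ones by 0.019 on the log2 scale (95% interval -0.24 to 0.28, limma adjusted p = 0.959). At 24 h the difference between 3VO and sham was -0.29 (-0.62 to 0.04, adjusted p = 0.774). The later 3VO arrays all lay above the earlier ones, by 0.43 (SE 0.15, interval 0.10 to 0.76, adjusted p = 0.795). Across all probe sets, 9.34% stood apart upward in that same contrast.

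The other Nr3c1 probe set was dim and gave another picture. It read 48, 345 and 505 on intact arrays, 1257, 1335 and 767 on sham arrays of 24 h, and 364, 542 and 737 on 3VO arrays of 24 h. At 3 d it read 810, 77 and 173 for sham and 377, 579 and 871 for 3VO. Its highest array was 27.8 times its lowest, against 1.80 times for the brighter probe set. The intact array at 48 and the sham array of 3 d at 77 lay below 100. Differences that involve these groups thus rest in part on values near the bottom of the scale. Sham arrays of 24 h all stood above intact ones, as in 9.96% of all probe sets, by 2.27 (0.57 to 3.97, adjusted p = 0.211), or by 1.35 to 2.86 with an array left out, and sham of 3 d differed from sham of 24 h, whose arrays it overlapped, by -2.18 (-3.88 to -0.48, adjusted p = 0.868). Without sham replicate 1 of 3 d, the array with the conflicting text, the latter was -3.06 (-4.68 to -1.43, adjusted p = 0.641). The 2 probe sets of the gene therefore disagree, and no direction is given for the receptor transcript.

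Hsd11b1, which supplies the receptor with active hormone, was the member whose sham arrays of 3 d all lay below the intact ones. Its signal was 7824, 7741 and 6231 on intact arrays, and 6202, 6257 and 2448 after sham surgery at 24 h. It was 7593, 6894 and 10762 after 3VO at 24 h. At 3 d the sham arrays gave 4722, 3253 and 2906 and the 3VO arrays 5255, 5790 and 7456. In order of the means, sham at 3 d (3627 ± 964) was lowest, followed by sham at 24 h (4969 ± 2184), 3VO at 3 d (6167 ± 1148), intact (7265 ± 897) and 3VO at 24 h (8417 ± 2061). Neighbours in this order all overlapped. The 3 sham arrays of 3 d stood apart from the intact arrays, as in 5.34% of all probe sets.

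Sham surgery at 3 d differed from intact by -1.02 for Hsd11b1 (SE 0.31, interval -1.68 to -0.36, limma adjusted p = 0.199), a level 0.492 times that of intact arteries, and by -1.23 (-1.95 to -0.50, adjusted p = 0.277) without the array whose text describes the occlusion. Sham at 24 h differed by -0.66 (-1.32 to 0.00, adjusted p = 0.333), a value that became -0.21 without sham replicate 3 of 24 h. After 3VO the signal was above sham on all arrays at both times. The difference was 0.85 at 24 h (0.19 to 1.51, adjusted p = 0.585) and 0.78 at 3 d (0.12 to 1.44, adjusted p = 0.999). Without that sham array the difference at 3 d was 0.98 (0.26 to 1.71, adjusted p = 0.669). At 24 h it fell to 0.41 without sham replicate 3, the array with a signal of 2448. Arrays of 3VO stood wholly above sham arrays for 6.42% of all probe sets at 24 h and for 4.34% at 3 d.

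Among the induced genes, Fkbp5 encodes an immunophilin that lowers the affinity of the receptor for hormone and so closes a feedback loop. It gave 6380, 5268 and 8197 on the intact arrays, and 7571, 7262 and 7917 on sham arrays of 24 h. After 3VO at 24 h it gave 13528, 10953 and 8051. At 3 d the values were 8005, 8072 and 9497 for sham and 9371, 9010 and 5839 for 3VO. The highest pair of the 15 arrays are thus both from 3VO at 24 h, and the third array of that group, at 8051, lies just above the highest sham array of 24 h, at 7917. The mean of 10840 ± 2740 after 3VO at 24 h compared with 7583 ± 328 after sham surgery and 6615 ± 1479 in intact arteries.

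The difference of Fkbp5 between 3VO and sham at 24 h was 0.48 (SE 0.21, interval 0.03 to 0.94, limma adjusted p = 0.691), or 1.40-fold. With 3VO replicate 1 of 24 h left out it was 0.31. Against intact arteries, 3VO at 24 h differed by 0.70 (0.25 to 1.16, adjusted p = 0.269), with 1 of the 3 arrays within the intact range. The mean of all operated groups against intact was 0.40 (0.04 to 0.76, adjusted p = 0.252). At 3 d the difference between 3VO and sham was -0.10 (-0.56 to 0.35), and -0.15 (-0.68 to 0.38) without the sham array whose text describes the occlusion. The difference between these effects, 3 d minus 24 h, was itself -0.59 (-1.23 to 0.05, adjusted p = 0.999), so a change of the effect with time was not shown. Without that array it was -0.63 (-1.34 to 0.08). The 3 sham arrays of 3 d lay above those of 24 h, as in 6.73% of all probe sets, with a difference of 0.16 (-0.29 to 0.62), or 0.21 (-0.32 to 0.74) without it.

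Tsc22d3 encodes GILZ, a leucine zipper protein that carries part of the anti-inflammatory action of glucocorticoids. Its signal was 14060, 9718 and 19501 on intact arrays, a spread that covers all but 2 of the 12 operated arrays. Sham arrays of 24 h gave 15958, 16684 and 15041, and 3VO arrays of 24 h gave 20266, 18560 and 15153. At 3 d sham arrays gave 14360, 20544 and 14684, and 3VO arrays 15537, 18693 and 13092. Group means lay between 14430 ± 4902 in intact arteries and 17990 ± 2603 after 3VO at 24 h, and no pair of groups stood apart. The operated groups differed from intact by 0.24 (-0.13 to 0.61, limma adjusted p = 0.516), and by -0.015 without intact replicate 2, the array at 9718. The difference between 3VO and sham at 24 h was 0.17 (-0.30 to 0.64, adjusted p = 0.932).

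Sgk1 encodes a kinase that regulates ion channels and transporters and responds both to glucocorticoids and to mineralocorticoids. It gave 21211, 16295 and 25770 on intact arrays, 24799, 17744 and 28855 on sham arrays of 24 h and 31096, 31703 and 27557 on 3VO arrays of 24 h. At 3 d sham arrays gave 19242, 24436 and 29709 and 3VO arrays 29122, 27177 and 19950. Only 3VO at 24 h stood above intact arteries on all its arrays, as 7.59% of all probe sets did, with a difference of 0.54 (0.08 to 0.99, limma adjusted p = 0.419). Against sham at 24 h the difference was 0.37 (-0.09 to 0.82, adjusted p = 0.796), and the groups overlapped. All operated groups together differed from intact by 0.30 (-0.06 to 0.66, adjusted p = 0.396).

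Errfi1, also called Mig6, encodes a feedback inhibitor of the epidermal growth factor receptor. Its intact arrays, at 16718, 9777 and 25388, had a standard deviation of 7821. The sham arrays of 24 h were almost equal at 22150, 22200 and 22614, and the 3VO arrays of that time, at 15221, 22093 and 18869, all lay below them. The difference was nevertheless -0.27 with an interval from -0.84 to 0.30 (limma adjusted p = 0.893), and 9.0% of all probe sets stood apart downward there. Sham arrays of 3 d lay below those of 24 h too, as in 4.55% of all probe sets. At 3 d the order of the means was the other way, with 17710 ± 3483 after sham and 23190 ± 4847 after 3VO, and the arrays overlapped. On all arrays, 3VO and sham at 3 d differed by 0.39 (-0.18 to 0.96) and sham of 3 d and of 24 h by -0.35 (-0.92 to 0.22). Without the sham array whose text describes the occlusion, these differences were 0.53 (-0.11 to 1.17) and -0.49 (-1.14 to 0.15). Against intact the operated groups differed by 0.33 (-0.13 to 0.78, adjusted p = 0.462), and by -0.031 without intact replicate 2.

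Klf9, a transcription factor of the Krüppel-like family, was read by 3 probe sets that did not move alike. The brightest gave 43140, 24741 and 36082 on intact arrays and 28667, 22923 and 24735 on 3VO arrays of 3 d, a difference of -0.41 (-0.83 to -0.0017, unadjusted p = 0.0492, limma adjusted p = 0.383). The second in brightness gave 3292, 1536 and 2042 on intact arrays and 4118, 3772 and 3183 on 3VO arrays of 24 h, a difference of 0.75 (0.0044 to 1.49, unadjusted p = 0.0488, adjusted p = 0.499). The dimmest ranged from 413 to 1696 over the 15 arrays. In the mean of the operated groups against intact the 3 probe sets gave -0.19 (-0.51 to 0.14), 0.61 (0.02 to 1.20, adjusted p = 0.279) and 0.08 (-0.73 to 0.90). Between 3VO and sham at 24 h they gave 0.13, 0.15 and -0.29, each with an interval that includes 0. After 3VO the arrays of 3 d all lay below those of 24 h in the brightest probe set, as in 4.68% of all probe sets. Between 3VO and sham at 3 d that probe set gave -0.35 (-0.76 to 0.06). Without the sham array whose text describes the occlusion it gave -0.47 (-0.93 to -0.02, limma adjusted p = 0.814). No direction can be given for the gene from these values.

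Cdo1 encodes cysteine dioxygenase, the enzyme that starts the breakdown of cysteine to taurine and sulphate. Its signal was 10672, 10524 and 7038 on intact arrays and 5363, 7896 and 4705 on sham arrays of 24 h. On 3VO arrays of 24 h it was 13984, 8874 and 14309. At 3 d it was 6299, 8478 and 5796 after sham and 9686, 6628 and 9144 after 3VO. The 24 h groups did not overlap, with means of 12390 ± 3048 after 3VO and 5988 ± 1685 after sham surgery.

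That difference in Cdo1, 1.05 (SE 0.25, interval 0.52 to 1.58, limma adjusted p = 0.245), was 2.07-fold and had the smallest unadjusted p of the members, 0.000731. The intact mean of 9411 ± 2057 lay between the 2 groups. Sham at 24 h differed from intact by -0.66 (-1.19 to -0.13, adjusted p = 0.237), whereas 3VO at 24 h differed by 0.39 (-0.14 to 0.92, adjusted p = 0.626). From 24 h to 3 d after 3VO the gene differed by -0.53 (-1.06 to -0.0031, unadjusted p = 0.0488, adjusted p = 0.845). At 3 d, 3VO and sham differed by 0.31 (-0.22 to 0.84), and by 0.26 (-0.36 to 0.87) without the sham array whose text describes the occlusion. Of the 11 probe sets, 5 had arrays that did not overlap between 3VO and sham at 24 h, namely those of Cdo1, Hsd11b1 and Fkbp5 upward and of Errfi1 and the dim Nr3c1 probe set downward. Arrays were apart upward in 6.42% and downward in 9.0% of all probe sets.

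**Figure D2:**
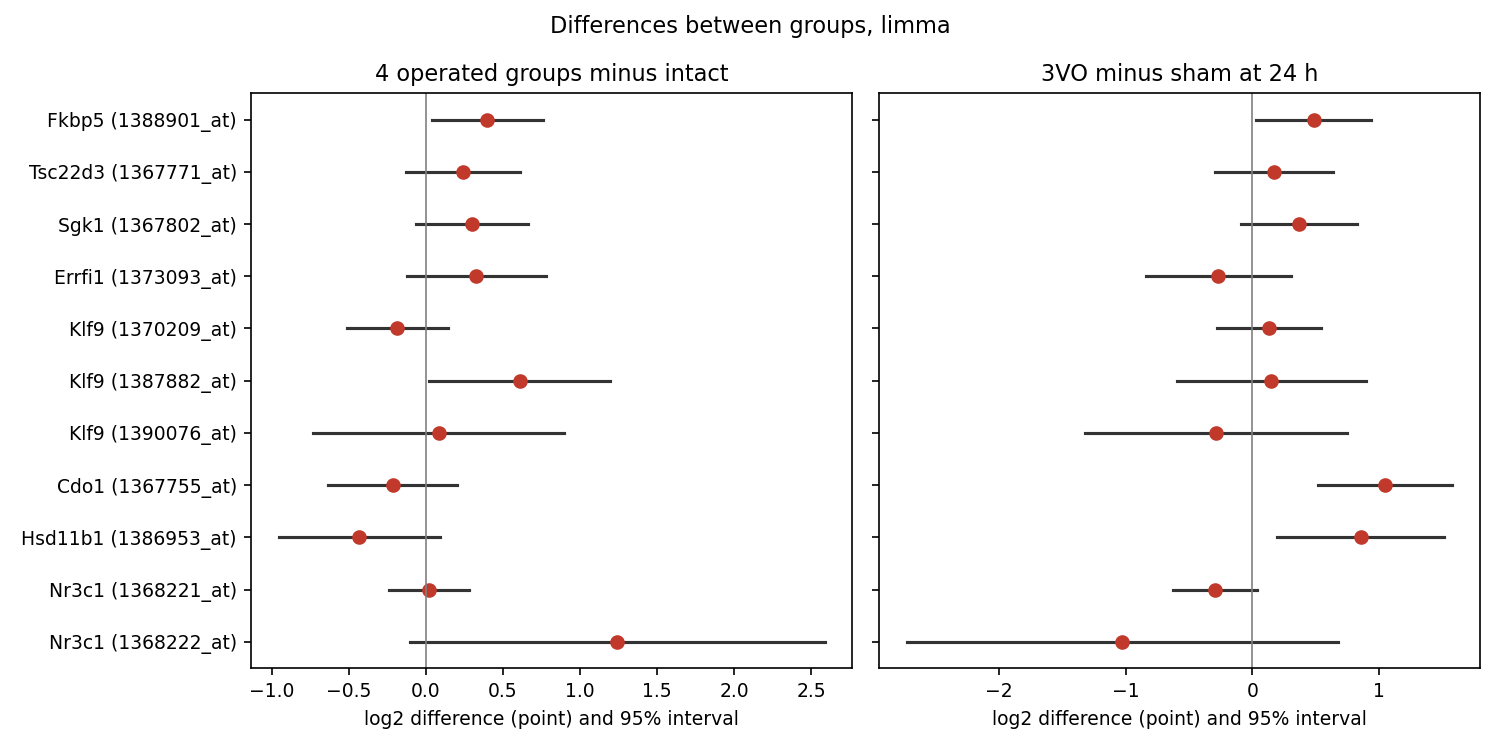
Log2 differences of the 11 probe sets with limma's 95% intervals, for the mean of the 4 operated groups minus intact (left) and 3VO minus sham at 24 h (right). On the left 2 intervals lie above 0, those of Fkbp5 and 1 Klf9 probe set, and on the right 3 do, those of Fkbp5, Cdo1 and Hsd11b1, while none passed after adjustment over 15737 probe sets.

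Some of the members varied together over the 15 arrays. These relations were taken on the brightest probe set of each gene, 28 pairs of members and 8 relations with the mean of the neuron markers, and their p-values were adjusted over all 36. Fkbp5 and Sgk1 went together with Pearson's r = 0.821 (permutation p = 7e-05, adjusted 0.00126) and Spearman's rho = 0.857 (permutation p = 0.00013, adjusted 0.00234). Without the 2 arrays farthest from the median of Fkbp5 r was 0.761, and after subtraction of the group means it was 0.731. Fkbp5 and Tsc22d3 had r = 0.736 (permutation p = 0.00218, adjusted 0.0196) and rho = 0.646 (permutation p = 0.0113, adjusted 0.0814), with r = 0.508 without the 2 farthest arrays and 0.690 within groups. The pair of Tsc22d3 and Sgk1 had r = 0.612 (permutation p = 0.0142, adjusted 0.0851) and rho = 0.425 (permutation p = 0.116, adjusted 0.457).

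Cdo1 and Hsd11b1 formed another pair, with r = 0.729 (permutation p = 0.0018, adjusted 0.0196) and rho = 0.814 (permutation p = 0.00034, adjusted 0.00408). Here r was 0.527 without the 2 arrays farthest from the median of Cdo1 and 0.488 within groups. Over all 15 arrays neither followed Fkbp5, with r = 0.075 for Cdo1 and -0.150 for Hsd11b1 (permutation p = 0.793 and 0.591, adjusted 0.866 and 0.733, with rho of -0.011 and -0.282, permutation p = 0.974 and 0.310, adjusted 0.995 and 0.566). Within groups these r were negative, at -0.409 and -0.529. With Sgk1, r was -0.038 for Cdo1 and -0.239 for Hsd11b1 over all arrays, and -0.571 and -0.747 within groups. With Tsc22d3 it was -0.227 and -0.259 within groups. The values within groups were not tested.

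**Figure D3:**
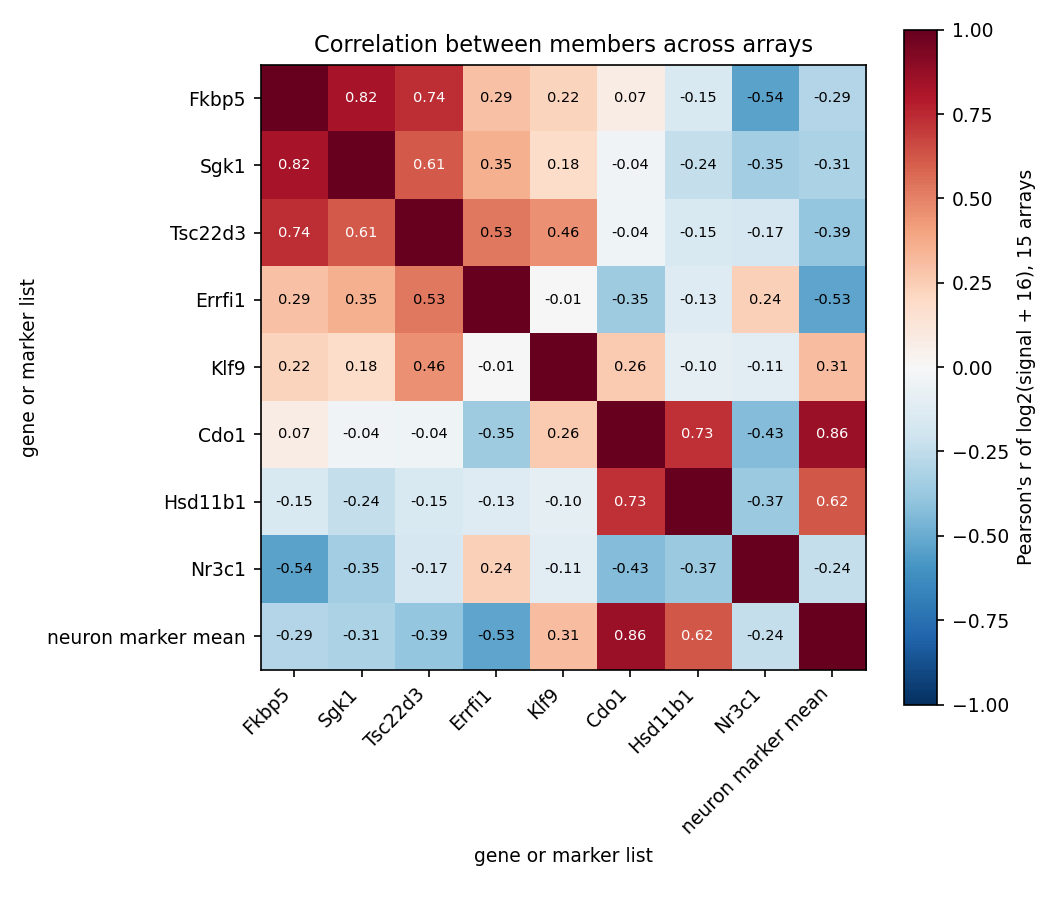
Pearson's r of log2(signal + 16) over the 15 arrays between the brightest probe sets of the 8 members and the mean of 13 neuron markers. Fkbp5, Sgk1 and Tsc22d3 form a block with r from 0.612 to 0.821. With the neuron markers, Cdo1 has r = 0.865 and Hsd11b1 r = 0.624, the latter with an adjusted permutation p of 0.084.

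Neuron markers varied with Cdo1 and, in rank correlation alone, with Hsd11b1. Cdo1 followed their mean with r = 0.865 and rho = 0.904 (permutation p = 1e-05 for both, the smallest that 100000 resamples can give, adjusted 0.00036). The 2 arrays farthest from the median of the neuron mean were intact replicates 1 and 2. Leaving them out gave 0.909, and the relation held within groups at 0.897. Hsd11b1 had r = 0.624 (permutation p = 0.0117, adjusted 0.0840) and rho = 0.771 (permutation p = 0.00117, adjusted 0.0105), with 0.580 without the 2 farthest arrays and 0.338 within groups. Fkbp5, Sgk1 and Tsc22d3 ran the other way without reaching the threshold, with r of -0.291, -0.314 and -0.388 (permutation p = 0.298, 0.254 and 0.153, adjusted 0.536, 0.523 and 0.453) and rho of -0.264, -0.214 and -0.296 (permutation p = 0.341, 0.440 and 0.282, adjusted 0.566, 0.636 and 0.566). Without the 2 farthest arrays, both intact, their r was 0.121, 0.025 and 0.014, so the sign over all arrays depended on those 2. Within groups, with all 15 arrays, r was negative too, at -0.536, -0.562 and -0.480. Errfi1 had r = -0.528 (permutation p = 0.0404, adjusted 0.182) and rho = -0.457 (permutation p = 0.0883, adjusted 0.457), with -0.258 without the 2 farthest arrays and -0.495 within groups.

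The summed signal of the 13 measured neuron markers lay between 129000 and 332000 in intact arteries, between 74700 and 116000 in sham at 24 h and between 105000 and 205000 in 3VO at 24 h. The 3 d groups lay between 90800 and 109000 for sham and between 71200 and 172000 for 3VO. Of the 13 markers, 13 were lower in the operated groups than in intact arteries and 13 were higher in 3VO than in sham at 24 h. Of all probe sets, 56.2% were higher in the former contrast and 47.3% in the latter. None of the 13 passed limma after adjustment in either, and 6 in each had an unadjusted p under 0.05, where 16.8% and 6.97% of all probe sets did. When the mean of the neuron markers entered the fit as a covariate, the difference of Cdo1 between 3VO and sham at 24 h was 0.51 (0.15 to 0.86, limma adjusted p = 0.551) in place of 1.05. The difference of Cdo1 between sham at 24 h and intact went from -0.66 to 0.040 (-0.35 to 0.43), and that of the operated groups from -0.22 (-0.63 to 0.20, adjusted p = 0.624) to 0.25 (-0.041 to 0.54). Hsd11b1 went from 0.85 to 0.59 (-0.18 to 1.36) at 24 h and from 0.78 to 0.70 (0.046 to 1.35) at 3 d.

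With the same covariate the differences between 3VO and sham at 24 h became 0.76 (0.27 to 1.24, limma adjusted p = 0.475) for Fkbp5, 0.66 (0.18 to 1.14, adjusted p = 0.572) for Sgk1 and 0.43 (-0.086 to 0.94, adjusted p = 0.818) for Tsc22d3. Their differences between operated and intact arteries became 0.16 (-0.23 to 0.56), 0.048 (-0.34 to 0.44) and 0.022 (-0.39 to 0.44). Without the sham array whose text describes the occlusion, the differences of the operated groups from intact, with no covariate, were 0.41 for Fkbp5, 0.34 for Sgk1, 0.26 for Tsc22d3, 0.29 for Errfi1, -0.20 for Cdo1 and -0.49 for Hsd11b1, none of which passed. Hsd11b1 in the operated groups differed from intact by -0.43 (-0.96 to 0.09, adjusted p = 0.393), and by -0.21 (-0.84 to 0.41) with the covariate.

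**Figure D4:**
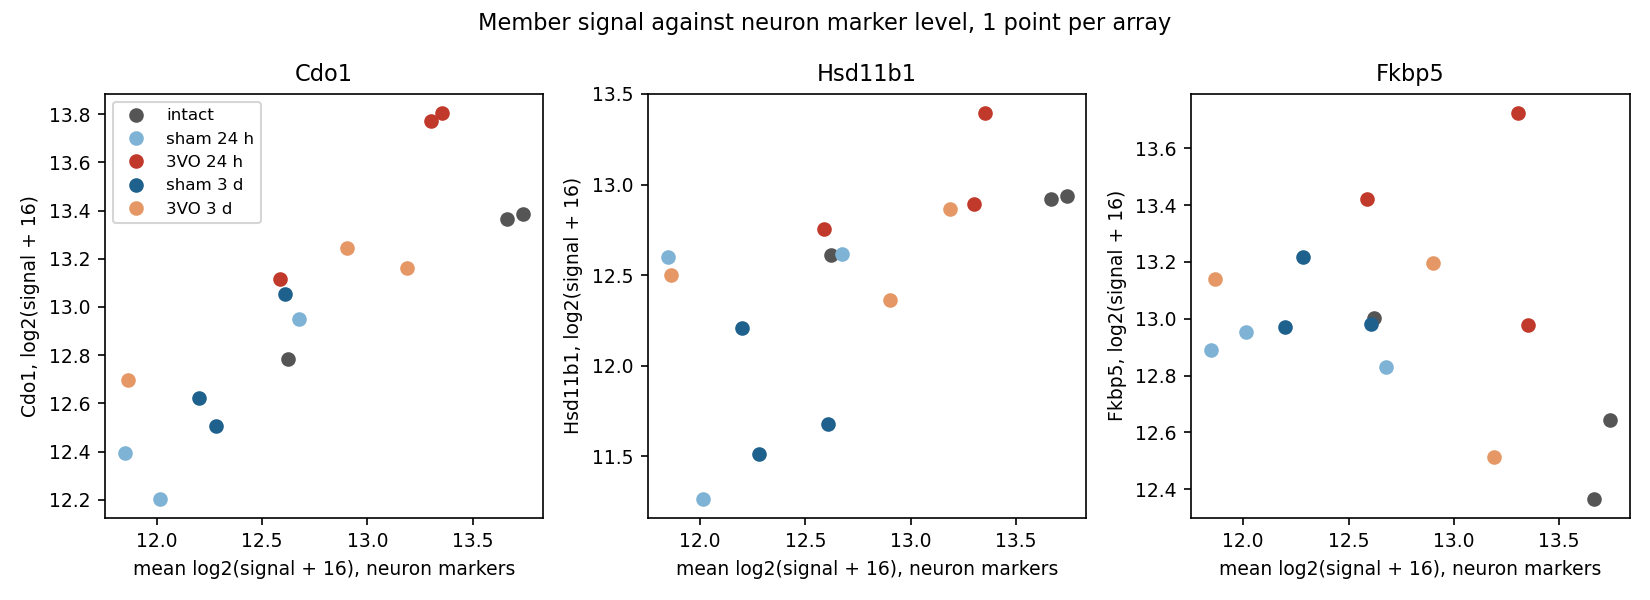
Log2(signal + 16) of Cdo1, Hsd11b1 and Fkbp5 against the mean log2(signal + 16) of 13 neuron markers, with 1 point per array coloured by group. The points of Cdo1 rise along a line with r = 0.865, those of Hsd11b1 scatter more with r = 0.624, and those of Fkbp5 show no rise with r = -0.291.

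Summed markers of other cell types also differed between 3VO and sham, although no marker of any list passed limma in either contrast. For macrophages, 9 of 11 markers were measured, with sums between 146000 and 225000 in 3VO and between 80200 and 121000 in sham at 24 h. The sums at 3 d lay between 122000 and 155000 in 3VO and between 74700 and 81000 in sham, and those of intact arteries between 53100 and 106000. Smooth muscle sums lay between 293000 and 416000 in 3VO and between 480000 and 589000 in sham at 24 h. Pericyte sums lay between 24000 and 27600 in 3VO and between 36200 and 49200 in sham at 24 h. Leptomeningeal fibroblast sums, with 10 of 10 markers measured, lay between 825000 and 948000 in 3VO and between 1010000 and 1140000 in sham at 24 h. Erythroid sums, with 5 of 7 measured, lay between 274000 and 293000 in 3VO and between 337000 and 405000 in sham at 24 h, and between 183000 and 280000 against 330000 and 412000 at 3 d. None of these ranges overlapped between 3VO and sham at the times given, but those of smooth muscle, pericytes and fibroblasts overlapped at 3 d. Smooth muscle had 9 of 9 markers lower in 3VO than in sham at 24 h, and erythroid cells 5 of 5. Pericytes had 4 lower and 2 higher of 6, and fibroblasts 9 lower and 1 higher of 10. For macrophages 9 of 9 were higher, where 47.3% of all probe sets were. Of the measured endothelial markers, 8 of 8 were lower in 3VO than in sham at 24 h and 8 of 8 at 3 d. At 3 d, 48.45% of all probe sets were higher. The endothelial sums overlapped at both times. Astrocyte sums, with 8 of 8 markers measured, lay between 292000 and 419000 in 3VO and between 251000 and 331000 in sham at 24 h, and overlapped. Choroid plexus markers, 6 of 8 measured, ranged from 19000 to 336000 over the arrays and were high in single arrays of several groups. Of all these markers 1, from the choroid plexus list, was below 100 on all arrays of a group, 3VO at 24 h. Against intact, 4 of 9 macrophage markers passed limma in 3VO at 24 h and 2 of 9 in 3VO at 3 d, all upward. Of all probe sets 0.184% and 0.222% passed there. With a term for the array number only 1 probe set of all passed at 24 h. At 3 d none passed without 3VO replicate 2 of 3 d or in a fit of the 2 groups only. In the operated groups together 2 of 9 macrophage and 1 of 10 leptomeningeal fibroblast markers passed upward, where 0.432% of all probe sets passed. No probe set passed there without intact replicate 1, 3VO replicate 2 of 3 d, or sham replicate 2 or 3 of 24 h. None passed with a term for the array number or for the neuron list either, so these marker calls were lost. In the operated groups against intact, 9 of 9 macrophage, 10 of 10 fibroblast and 8 of 8 endothelial markers were higher, where 56.2% of all probe sets were. Smooth muscle had 7 of 9 higher, astrocytes 2 of 8 and choroid plexus 1 of 6. The part of these cell types in the values of Fkbp5, Sgk1, Cdo1 and Hsd11b1 was not tested.

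As a description of likeness over the 15 arrays, 9974 probe sets of other single genes with a mean signal of at least 1000 were ranked by Pearson's r with each member. Nearest to Fkbp5 were Syncrip-ps2 (r = 0.870), the membrane fusion gene Stx3 (0.864) and Klf15 (0.838), another factor of the Krüppel-like family. Syncrip-ps2 (0.814) was also among the nearest of Sgk1, with Tm9sf4 and Ms4a6a (both 0.828). Tsc22d3 was nearest to Htra3, Adh1c and Mbd2 (0.845, 0.840 and 0.828), and Errfi1 to Grk5, Fchsd2 and Bambi (0.911, 0.886 and 0.879). Cdo1 was nearest to the chemokine Cxcl14 (0.962), the neuroendocrine secretory protein gene Scg2 (0.909) and the axonal growth gene Basp1 (0.904). Hsd11b1 was nearest to Tcea2, Ap2m1 and the neuronal amino acid transporter Slc6a15 (0.897, 0.873 and 0.869). For the brightest Klf9 probe set the bicarbonate transporter Slc4a4 (0.884) came first, before Kidins220 (0.803) and Plekha1 (0.786). For Nr3c1 they were Hnrnpr, Trappc6b and Atp2a3 (0.922, 0.849 and 0.843).

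RefSeq promoter windows of build GRCr8, from 250 bases before to 50 after a start site, were searched for the binding sequence of the receptor. Windows were matched for 6 of the 8 members by symbol, 11 windows in all, with Cdo1 and Hsd11b1 unmatched. On either strand, the full palindrome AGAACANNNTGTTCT was in none of these 11 and in 0.015% of 33469 windows of the same length. The half-site AGAACA, part of the palindrome, was in none of the 11 and in 20.7% of all windows. The core ACANNNTGT, which the palindrome also contains, was in 1 of the 11, at position -183 from a start site of Tsc22d3, and in 6.86% of all windows. That window and the one of Fkbp5, the gene that varied with Sgk1, are given here 5′ to 3′, with the core in capitals where it is present. The Tsc22d3 window is chrX:109065381-109065680 and that of Fkbp5 chr20:6543506-6543805, both on the minus strand.
Tsc22d3: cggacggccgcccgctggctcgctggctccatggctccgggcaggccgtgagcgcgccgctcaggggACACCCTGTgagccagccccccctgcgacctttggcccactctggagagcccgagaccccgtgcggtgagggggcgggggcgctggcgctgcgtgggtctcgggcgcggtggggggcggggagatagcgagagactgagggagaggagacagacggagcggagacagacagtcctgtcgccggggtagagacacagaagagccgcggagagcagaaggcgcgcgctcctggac
Fkbp5: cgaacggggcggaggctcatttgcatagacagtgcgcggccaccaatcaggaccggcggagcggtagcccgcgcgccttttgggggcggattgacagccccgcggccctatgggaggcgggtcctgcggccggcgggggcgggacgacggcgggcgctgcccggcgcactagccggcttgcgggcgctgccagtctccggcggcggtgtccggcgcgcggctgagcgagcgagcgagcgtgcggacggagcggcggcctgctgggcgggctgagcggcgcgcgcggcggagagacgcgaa
A match is a description of letters, and the absence of one covers only these windows.

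The wider response was taken from a list of 49 other genes known to be induced by glucocorticoids, of which 41 were measured by the brightest probe set of each. Like the lists that follow, it was drawn up with earlier results of these data known, so its counts are no independent support. In the operated groups against intact 31 were higher and 10 lower, with a median log2 difference of 0.26 against 0.050 over all probe sets, of which 56.2% were higher, and 0 passed limma after adjustment. In that contrast 11 of 41 had an unadjusted p under 0.05, where 16.8% of all probe sets did. Between 3VO and sham at 24 h, 24 were higher and 17 lower (median 0.034), 6 had an unadjusted p under 0.05 against 6.97% of all probe sets, and 1 passed. That gene was Lcn2, an iron-binding acute phase protein, at 14690 ± 7289 after 3VO and 2174 ± 346 after sham (log2 2.63, SE 0.38, limma adjusted p = 0.0141). Its limma adjusted p lay between 0.0588 and 0.122 when 3VO replicate 1 or 2 or any of the sham replicates of 24 h was left out. The call was also lost without the variance trend (adjusted p = 0.0733). Lcn2 passed in 3VO at 24 h against intact as well, where it stood at 1551 ± 137 (log2 3.10, SE 0.38, limma adjusted p = 0.00257). There it passed with any 1 array left out, and was lost with a term for the array number (adjusted p = 0.197) and in a fit of these 2 groups only (0.0749).

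The genes of that list with the smallest unadjusted p against intact were Lcn2 (1.40), the decoy receptor Il1r2 (1.62), the transcription factor Foxo3 (-0.40) and Anxa1 (0.87), which codes for annexin A1. Their adjusted p-values lay between 0.0574 and 0.127 in limma. In 3VO against sham at 24 h they were Lcn2, the metal-binding Mt2A (1.36, 0.77 to 1.94), the cell cycle inhibitor Cdkn1c (-0.64, -1.04 to -0.24) and the glycerol phosphate dehydrogenase Gpd1 (1.0, 0.26 to 1.74). Mt2A stood at 36610 ± 5149 after 3VO and 14640 ± 4154 after sham (adjusted p = 0.148). Cdkn1c stood at 46580 ± 6880 and 72150 ± 3107 (adjusted p = 0.450).

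Genes of the receptor complex, its cofactors and steroid metabolism were measured for 21 of 28. Against intact 7 were higher and 14 lower in the operated groups (median -0.088), and 0 passed, with 1 of 21 at an unadjusted p under 0.05, where 16.8% of all probe sets were. That gene was the chaperone Hspa4, at 9623 ± 165 in intact arteries (-0.39, -0.67 to -0.11, limma adjusted p = 0.161), followed by Smarca4 (-0.29), Ncoa1 (-0.21) and Stip1 (-0.17). In 3VO against sham at 24 h 0 of 21 passed and 1 had an unadjusted p under 0.05, where 6.97% of all probe sets did. It was the mineralocorticoid receptor gene Nr3c2 (-0.40, -0.80 to -0.0058, adjusted p = 0.713), followed by Dnaja1 (0.22), the steroid reductase Akr1d1 (1.13, -0.09 to 2.35) and Hspa4 (-0.31).

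Inflammatory genes that glucocorticoids are known to restrain were measured for all 21. In the operated groups against intact 17 were higher and 4 lower (median 0.30), where 56.2% of all probe sets were higher. None of the 21 passed limma after adjustment and 9 had an unadjusted p under 0.05, where 16.8% of all probe sets did. These were led by the chemokine Ccl2 (1.81, 0.80 to 2.81), the adhesion molecule Vcam1 (0.46, 0.19 to 0.72), Cxcl1 (2.19, 0.81 to 3.57) and the cyclooxygenase Ptgs2 (0.79, 0.25 to 1.33), with adjusted p between 0.0946 and 0.147. Cxcl1 was below 100 on the 3 intact arrays. In 3VO at 3 d alone against intact, Ccl2 passed, at 5623 ± 3314 against 428 ± 123 (log2 3.49, SE 0.60, limma adjusted p = 0.0321), and it is named there after its values were seen. That call was lost with 1 array left out for 6 of the 15 arrays (adjusted p from 0.0562 to 0.192), namely intact replicates 1 and 2, sham replicates 2 and 3 of 24 h and 3VO replicates 2 and 3 of 3 d, and under 6 of the 12 other settings (0.0605 to 0.258). After 3VO at 24 h, against sham, 11 were higher and 10 lower (median 0.0052), 0 passed, and 3 had an unadjusted p under 0.05 against 6.97% of all probe sets. The cytokine Tnf was at 160 ± 191 after 3VO and 794 ± 204 after sham. Of its 3 arrays after 3VO, 2 were below 100, at 38 and 62, so the fitted difference of -2.74 (-4.22 to -1.25, adjusted p = 0.312) rests on values near the bottom of the scale. The interferon-induced Cxcl10 differed by -0.98 (-1.48 to -0.47, adjusted p = 0.264), the nitric oxide synthase Nos2 by -2.46 (-4.09 to -0.84, adjusted p = 0.505) and Ccl2 by 1.14 (-0.14 to 2.41, adjusted p = 0.770).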

How the data were processed

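RNA of the posterior cerebral artery was measured on 15 Affymetrix Rat230A arrays. The deposited values are linear signal intensity values, 1 per probe set, computed by the authors with the GCOS software and brought to 1 target of 500 on each array, per the labels and the series' design text. The sources used here give no GCOS version. The trimmed mean, with 2% removed at each end, was 5000 on every array, 10 times that target.

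The authors' scaling was kept. Of 15923 probe sets, 57 controls were left out, and 15737 with a signal of at least 100 on at least 3 arrays were tested, among them all 11 of the members. Symbols came from the platform table and were updated through gene and RefSeq identifiers. Of the probe sets, 12783 had 1 gene, 312 several and 2771 none.

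limma 3.58.1 in R 4.3.3 fitted 5 group means to log2(signal + 16) of all 15 arrays, with 10 residual and 4.83 prior degrees of freedom and a variance trend. Tests were 2-sided, with Benjamini-Hochberg adjustment over all probe sets. Nothing says that pools of a group came from separate cohorts, so p-values measure the spread between arrays, and their number limits the precision. The fit was checked on simulated data with independent noise, for the size and sign of added differences only. Those data hold no variation shared by the probe sets of an array, so the check does not cover it. Members and gene lists were chosen with earlier results of these data known. Every member probe set was named, and from each list up to 4 genes with the smallest unadjusted p in each of 2 contrasts, the operated groups against intact and 3VO against sham at 24 h. For likeness, the 3 nearest probe sets of each member were named. Alternatives were pseudocounts of 1 and 64, no signal minimum, minimums of 300 and of 1000 with a pseudocount of 160, quantile normalization, median centring, no variance trend, array weights, a term for the array number or for the neuron list, the groups of a contrast alone, and leaving out each array.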

Additional observations from a re-analysis of the deposited data

How the results depend on the processing

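No probe set of the 8 genes passed in any contrast under any of the 12 alternative settings or with any of the 15 arrays left out, so the count stayed at 0 throughout. Over all probe sets, the 68 calls of the operated groups against intact became 41 with quantile normalization, 27 with median centring, 3 with array weights, 1 without the variance trend and 0 with a term for the array number or for the neuron list. Single differences of the members were followed through the settings for 34 of their contrasts. Among these 34, the value nearest the threshold was that of Errfi1 in the operated groups against intact. Its limma adjusted p was 0.0654 without intact replicate 3, over a range up to 0.982. Of the 34, 25 kept their sign in every setting. With the neuron covariate, Cdo1 became 0.25 in the operated groups and 0.040 in sham at 24 h, both against intact, and Errfi1 became 0.062 in 3VO against sham at 24 h. In the operated groups against intact, the brighter Nr3c1 probe set became -0.0079 with median centring and ranged from -0.059 to 0.10 with an array left out. The dimmest Klf9 probe set became -0.017 with quantile normalization and -0.077 with a term for the array number, and ranged from -0.10 to 0.23 with an array left out. Ranges with an array left out were -0.015 to 0.49 for Tsc22d3 and -0.031 to 0.66 for Errfi1 in that contrast. In 3VO against sham at 24 h they were -0.010 to 0.26 for the second Klf9 probe set and -0.76 to 0.12 for the dimmest. No paired analysis was possible because the labels give arrays running numbers and no replicate numbers shared between groups.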
